A study of Homo sapiens with 16 samples.

Results

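The 9 genes described here encode surface antigens of mature B cells: MS4A1 (which encodes CD20), CD22, CD37, CD72, CD38, CD52, CD27, CXCR5 and TNFRSF13C (the BAFF receptor). They were chosen by symbol, and all 9 were found among the 23230 gene symbols of each of 16 count tables. The series asks what a peptide that binds DPY30 does to growing blood cancer cells. DPY30 is a core subunit of the SET1/MLL complexes that methylate histone H3 at lysine 4. Each of 8 established human lines received a DPY30-binding peptide named Y518R or a non-binding peptide named 3R, with 1 library per line and peptide.

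Mature B-lineage lines were RAJI, labelled Burkitt's lymphoma, and P493-6, labelled a model of that lymphoma. B-precursor lines were RS4-11, a leukemia line with MLL-AF4, and KOPN8, a leukemia line with MLL-ENL. The 4 other lines were MOLM13 and THP1, both leukemia lines with MLL-AF9, K562, a leukemia line with BCR-ABL, and JURKAT, a T cell leukemia line labelled as Myc dependent. Lineages other than the T cell one are general knowledge of these lines and were checked against markers. Every line, under either peptide, grew in Advanced RPMI with fetal bovine serum at 2.5%. The sources used here do not give peptide dose or exposure time, and each class rests on few lines, each of which is a single established culture.

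These proteins sit at the B cell surface and set how the cell reads antigen, survival factors and position. CD20 and CD37 are membrane-spanning proteins, CD52 is a short glycoprotein held by a lipid anchor, and CD38 is an enzyme that consumes NAD. CD22, which binds sialic acid, and CD72, which binds CD100, carry inhibitory motifs that dampen B cell receptor signalling. CD27 binds CD70 and the BAFF receptor binds BAFF, and both belong to the tumour necrosis factor receptor family, whereas CXCR5 guides B cells toward CXCL13 in follicles. CD20, CD22, CD38 and CD52 are targets of antibody drugs in clinical use. In normal development CD22, CD72 and CD38 are already made by precursors, while CD20 and the BAFF receptor come up as B cells mature.

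Upstream sequences were examined for the 9 genes, and 6 of them (CD22, CD72, CD38, CD52, CD27 and CXCR5) had an entry in the RefSeq promoter table of build GRCh38.p14. CD27 and CXCR5 had the most similar levels over lines of any pair of the 9 genes, though CXCR5 was high in RAJI alone. CD72 was the gene that was lower in the mature lines. The sequences of these 3 genes are shown for those reasons. Each is the 250 bases before the annotated start, given 5′ to 3′ on the strand of the gene, and capitals mark a match to CAGGTG, the E-box bound by TCF3.
CD27, chr12:6443642-6443891, plus strand: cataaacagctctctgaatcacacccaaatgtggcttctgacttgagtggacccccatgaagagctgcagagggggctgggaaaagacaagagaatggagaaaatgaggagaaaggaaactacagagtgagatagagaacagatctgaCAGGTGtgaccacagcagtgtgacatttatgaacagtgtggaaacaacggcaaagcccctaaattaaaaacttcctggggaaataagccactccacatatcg
CXCR5, chr11:118893142-118893391, plus strand: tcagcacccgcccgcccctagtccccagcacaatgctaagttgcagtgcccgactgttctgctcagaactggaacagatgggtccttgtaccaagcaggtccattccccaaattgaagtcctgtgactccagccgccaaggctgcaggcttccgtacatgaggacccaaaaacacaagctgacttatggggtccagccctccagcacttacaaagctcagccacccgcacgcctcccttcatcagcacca
CD72, chr9:35618414-35618663, minus strand: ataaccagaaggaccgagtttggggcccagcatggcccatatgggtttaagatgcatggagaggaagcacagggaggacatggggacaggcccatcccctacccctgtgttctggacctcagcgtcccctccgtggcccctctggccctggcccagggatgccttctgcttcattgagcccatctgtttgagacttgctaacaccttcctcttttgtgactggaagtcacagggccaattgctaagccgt
CAGGTG, searched on both strands, was found in CD27 at 102 to 97 bases before the start and in CD38, on the opposite strand, at 183 to 178 bases before it. The same letters stood in 17.5% of 35116 promoter windows of equal length. No window of the 6 genes held the octamer ATGCAAAT (1.63% of all windows) or the ETS motif GAGGAAGT (2.17%), both searched on both strands. CD27 and CXCR5 thus shared none of the letters searched. A match is a description of the letters, and these count data do not measure binding at any of them.

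Libraries held 19354300 to 43003124 gene counts, so that 3 counts, the limit that a count of 0 allows, came to 0.0698 to 0.155 CPM (counts scaled for library size). Reads outside any gene were 17.7% to 26.9% in 15 libraries and 44.7% in the RAJI library with 3R, which stands apart from the rest. All 16 libraries were most alike to the other library of the same line. Of the B-lineage markers, CD79A was at 407 to 561 CPM in the libraries of the 4 B-lineage lines and at most 19.4 CPM in the other lines, and PAX5 was at 107 to 366 CPM in the B-lineage lines and at most 4.28 CPM in the other lines. The 6 B-precursor markers summed to 171 CPM with Y518R and 135 CPM with 3R in RAJI, to 14.0 CPM with Y518R and 12.2 CPM with 3R in P493-6, and to 1078 to 1710 CPM in RS4-11 and KOPN8. JURKAT also had 4 of 6 of them at 1 CPM or more, with a sum of 625 CPM with Y518R and 582 CPM with 3R. JURKAT had 7 of 7 T cell markers, MOLM13 and THP1 each had 7 of 7 monocytic markers, and K562 had 7 of 7 erythroid markers at 1 CPM or more. By the same criterion RS4-11 also had 5 of 7 monocytic markers, at a sum of 62.6 CPM with Y518R and 59.5 CPM with 3R, and KOPN8 had 3 of 7 T cell markers, at a sum of 166 CPM with Y518R and 154 CPM with 3R. THP1 likewise had 5 of 5 and MOLM13 3 of 5 B-lineage markers at 1 CPM or more.

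The first comparison set the lines against each other, since all 9 genes were picked as B cell genes. Levels are CPM scaled by the trimmed mean of M-values (TMM), and the value with Y518R precedes that with 3R.

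MS4A1 encodes CD20, the target of rituximab. It was at 1018 CPM with Y518R and 1385 CPM with 3R in RAJI, and at 944 CPM with Y518R and 959 CPM with 3R in P493-6. In the precursor line KOPN8 it was at 20.5 CPM with Y518R and 11.9 CPM with 3R, and in RS4-11 at 0.821 CPM with Y518R and 0.255 CPM with 3R. The 4 other lines gave 0.245 to 0.697 CPM. The 2 mature lines were thus far above KOPN8, and the RS4-11 libraries overlapped those of THP1 and MOLM13, which are not B cells.

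CD37, a tetraspanin, was at 227 CPM with Y518R and 275 CPM with 3R in RAJI and at 243 CPM with Y518R and 261 CPM with 3R in P493-6. It was at 55.0 CPM with Y518R and 48.1 CPM with 3R in RS4-11, and at 81.8 CPM with Y518R and 81.3 CPM with 3R in KOPN8. The gene was not restricted to B-lineage lines. THP1 had 128 CPM with Y518R and 155 CPM with 3R, above both precursor lines, and MOLM13 had 74.3 CPM with Y518R and 53.1 CPM with 3R. K562 had 9.58 CPM with Y518R and 7.65 CPM with 3R, and JURKAT had 1.22 CPM with Y518R and 1.0 CPM with 3R.

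CD52, the alemtuzumab antigen, was at 46.0 CPM with Y518R and 52.9 CPM with 3R in RAJI, and at 49.6 CPM with Y518R and 57.4 CPM with 3R in P493-6. KOPN8 had 63.2 CPM with Y518R and 59.1 CPM with 3R, whereas RS4-11 had 6.23 CPM with Y518R and 5.73 CPM with 3R. THP1 had 25.1 CPM with Y518R and 16.4 CPM with 3R, K562 had 13.0 CPM with Y518R and 12.3 CPM with 3R, and both exceeded RS4-11. MOLM13 and JURKAT ranged from 3.34 to 4.68 CPM. The 2 precursor lines differed 10.2-fold in their mean levels of CD52, so that the class held the highest of the 8 lines and also the line that ranked 6.

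CD38, the daratumumab antigen, was at 96.5 CPM with Y518R and 100 CPM with 3R in RAJI and at 62.9 CPM with Y518R and 60.8 CPM with 3R in P493-6. It was at 42.3 CPM with Y518R and 48.4 CPM with 3R in RS4-11, and at 110 CPM with Y518R and 112 CPM with 3R in KOPN8. The mature and precursor lines overlapped. THP1 had 11.3 CPM with Y518R and 17.2 CPM with 3R, JURKAT had 10.7 CPM with Y518R and 11.3 CPM with 3R, and MOLM13 had 2.74 CPM with Y518R and 2.11 CPM with 3R. K562 had 0 CD38 counts with Y518R and 2 counts with 3R, both at or under the limit of 3 counts.

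Among the inhibitory receptors, CD22 was at 504 CPM with Y518R and 626 CPM with 3R in RAJI, and at 248 CPM with Y518R and 226 CPM with 3R in P493-6. KOPN8 had 390 CPM with Y518R and 444 CPM with 3R, and RS4-11 had 154 CPM with Y518R and 144 CPM with 3R. The precursor and mature lines therefore alternated in the order of CD22 levels. K562 had 4.06 CPM with Y518R and 4.02 CPM with 3R, and the remaining 3 lines had 0.171 to 0.598 CPM.

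CD72 ran the other way. It was at 44.5 CPM with Y518R and 52.0 CPM with 3R in RAJI, and at 59.0 CPM with Y518R and 48.1 CPM with 3R in P493-6. It was at 303 CPM with either peptide in RS4-11, and at 179 CPM with Y518R and 170 CPM with 3R in KOPN8. Both mature lines lay below both precursor lines, and the 2 mature lines overlapped each other. JURKAT had 2.78 CPM with Y518R and 2.87 CPM with 3R, and the remaining lines had 0.346 to 1.23 CPM.

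CD27, the receptor of CD70 and a marker of memory B cells, was at 99.2 CPM with Y518R and 85.2 CPM with 3R in RAJI, and at 9.47 CPM with Y518R and 12.2 CPM with 3R in P493-6. The precursor lines had 0.304 to 0.856 CPM. JURKAT, at 1.30 CPM with Y518R and 1.67 CPM with 3R, was above both precursor lines. MOLM13, THP1 and K562 were each at 12 counts or fewer.

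TNFRSF13C, which takes up the survival signal of BAFF, was at 27.8 CPM with Y518R and 43.4 CPM with 3R in RAJI, and at 39.5 CPM with Y518R and 36.2 CPM with 3R in P493-6. KOPN8 had 33.9 CPM with Y518R and 36.6 CPM with 3R, and RS4-11 had 5.29 CPM with Y518R and 8.62 CPM with 3R. RAJI, P493-6 and KOPN8 overlapped, and so did RS4-11 and the monocytic line MOLM13, at 6.52 CPM with Y518R and 5.23 CPM with 3R. The other 3 lines were below 1 CPM.

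CXCR5, the follicle-homing receptor, was found mainly in RAJI, which had 81.5 CPM with Y518R (1563 counts) and 108 CPM with 3R (2031 counts). P493-6, the second mature line, had 0.622 CPM with Y518R (18 counts) and 1.01 CPM with 3R (28 counts). JURKAT had 10 counts with Y518R and 24 counts with 3R, KOPN8 had 2 counts with Y518R and 6 with 3R, RS4-11 had 0 with Y518R and 1 with 3R, and THP1 had 0 with Y518R and 7 with 3R. MOLM13 and K562 had no count in any library. Of the 4431 exon bases of CXCR5 in GENCODE v29, 3925 are shared with BCL9L on the opposite strand. BCL9L had 452 to 3256 counts per library and was highest in RS4-11, at 2019 counts with Y518R and 3256 with 3R. MOLM13 and K562, with no CXCR5 count, had 452 to 889 BCL9L counts. The sources used here do not give the counting's strand setting, and what the overlap did to CXCR5 counts was not tested. CD72 likewise shares 500 of 2675 exon bases with TESK1, and CD27 shares 287 of 1338 with CD27-AS1.

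The name of mature B cell genes thus describes the group in part. MS4A1, CD27 and CXCR5 were high in 1 or both mature lines and low elsewhere. CD22, CD72 and CD38 were also abundant in precursor lines, and TNFRSF13C in KOPN8 overlapped the mature lines. CD37 and CD52 were also present in monocytic lines, and CD52 was higher in K562 than in MOLM13. CD38 was also present in THP1 and JURKAT, and TNFRSF13C in MOLM13.

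**Figure D1:**
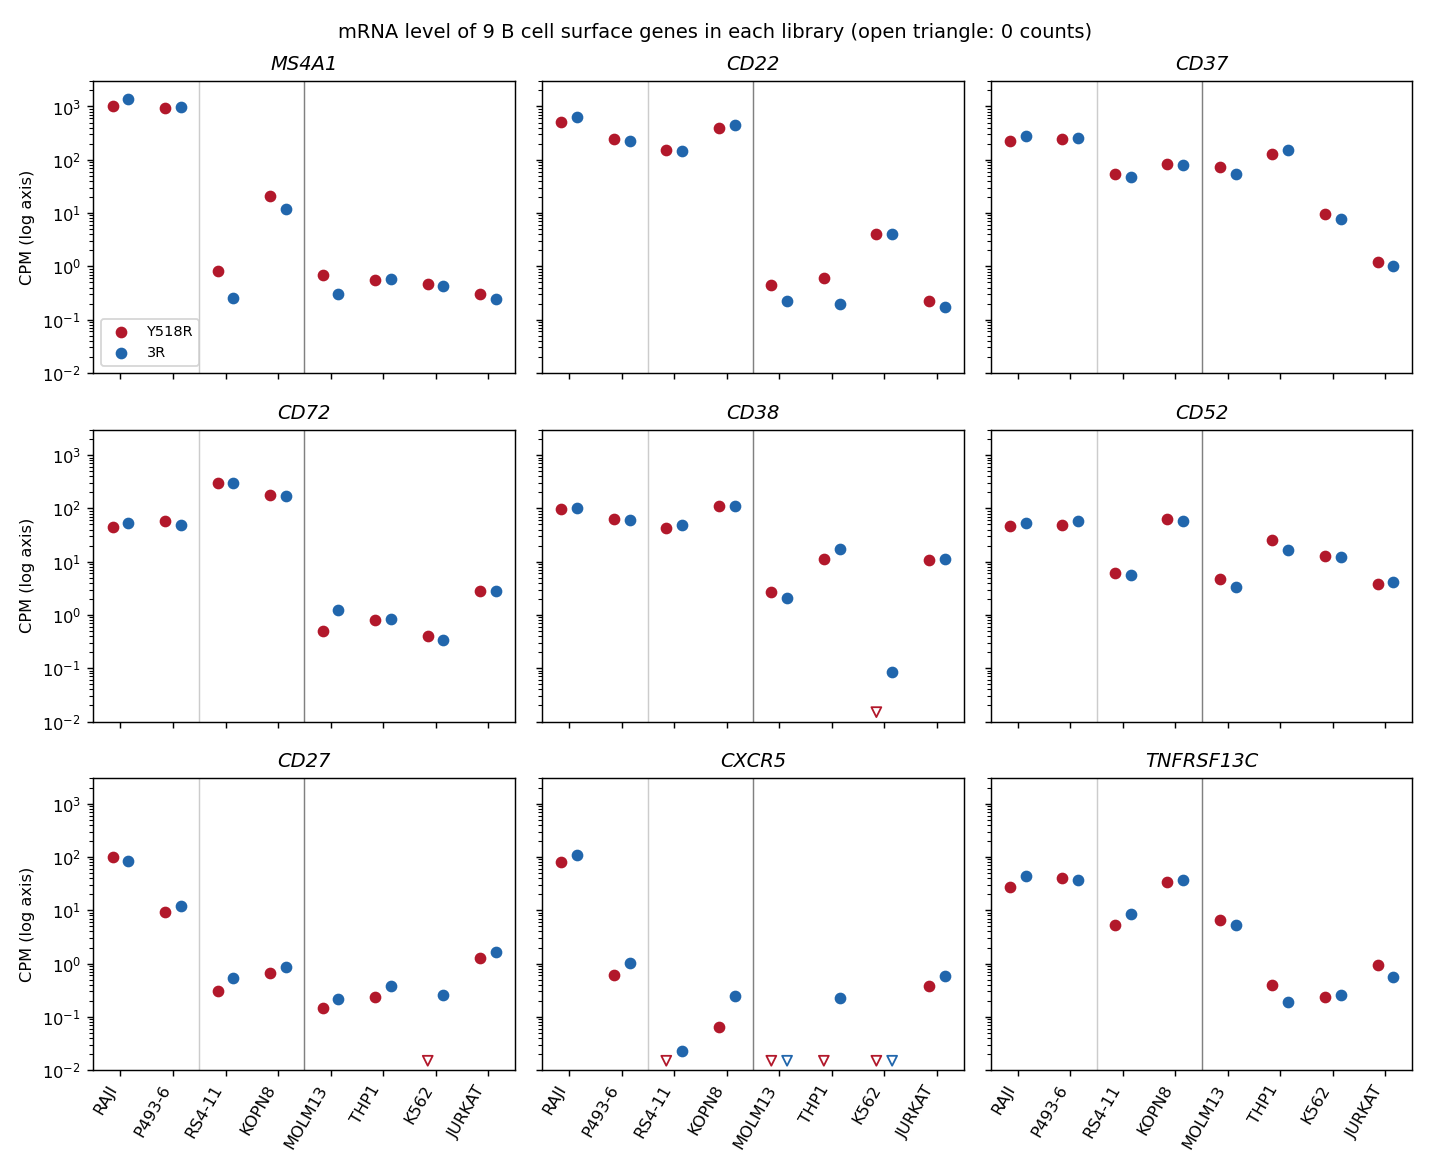
CPM (log axis) of each of the 9 genes in 8 cell lines, 1 point per library, Y518R (red) left of 3R (blue); an open triangle at the bottom is a library with 0 counts. Grey lines separate mature B, B-precursor and other lines. MS4A1, CD27 and CXCR5 are high in 1 or both mature lines, CD72 is highest in RS4-11 and KOPN8, and CD37 and CD52 also reach the non-B lines.

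The next comparison tested mature against precursor lines, with the 2 libraries of each line summed and lines as replicates (2 lines against 2). Of the 9 genes, 7 had a higher fitted level in the mature lines, with a median log2 difference of 0.76, whereas 47.9% of all 17460 genes tested were above 0, with a median of 0. By edgeR's quasi-likelihood test with Benjamini-Hochberg adjustment, 0 of the 9 genes passed an adjusted p of 0.05, where 0.0115% of all genes (2 genes, both lower) did. At an unadjusted p of 0.05, 5 of 9 passed, where 1503 of all 17460 genes did. By DESeq2 the adjusted test called those same 5, where it called 1406 of 15410 genes. Differences between genes that passed and genes that did not were not tested.

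MS4A1 differed by 6.92 ± 1.69 on the log2 scale (SE, n = 2 lines each; edgeR adjusted p = 0.403, DESeq2 adjusted p = 1.5e-05). Without RS4-11 the edgeR difference was 5.98, and without KOPN8 it was 11.0. CD27 differed by 6.40 ± 1.39 (edgeR adjusted p = 0.331, DESeq2 adjusted p = 8.9e-07), and by 4.15 without RAJI. CXCR5 differed by 9.20 ± 3.12 (edgeR adjusted p = 0.550, DESeq2 adjusted p = 0.00187), and by 3.32 without RAJI. Leaving out a line of either class leaves 1 line in it, which is then assumed to vary like the other classes. CD37 differed by 1.89 ± 0.51 (edgeR adjusted p = 0.461, DESeq2 adjusted p = 0.0268). CD72 was the one gene of the 5 that was lower in the mature lines, at −2.26 ± 0.40 (edgeR adjusted p = 0.211, DESeq2 adjusted p = 2.82e-05), and it stayed between −2.60 and −1.81 without any 1 of the 4 B-lineage lines.

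The 4 remaining genes missed both tests. CD22 differed by 0.48 with a 95% interval of −1.13 to 2.08, CD38 by −0.0023 (−2.31 to 2.30), CD52 by 0.57 (−2.52 to 3.66) and TNFRSF13C by 0.76 (−2.80 to 4.32). These intervals are wide, and a miss does not show that the classes had equal levels. Mean levels of the lines did not overlap for MS4A1, CD37, CD27, CXCR5 and TNFRSF13C, all higher in the mature lines, a pattern seen in 20.6% of all genes, and for CD72, which was lower, a pattern seen in 20.2%. TNFRSF13C was separated only narrowly, at 35.6 CPM in RAJI against 35.2 CPM in KOPN8, whose libraries overlap.

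Genes around the same receptors were read from fixed lists. Of 6 B-precursor markers, IGLL1, the surrogate light chain gene, was lower in the mature lines (−10.1 ± 0.47, edgeR adjusted p = 0.0225), and the other 5 did not pass. Among 32 other B cell surface genes, 25 of B cell receptor signalling, 14 of CD27 and BAFF receptor ligands and signalling, 20 B cell transcription factors and 11 measured partners or relatives of CD22 and CD72, none passed. The lowest p among transcription factors was that of POU2F2, the octamer factor OCT2, at 4.38 ± 0.54 (edgeR adjusted p = 0.120). PTPN6, the phosphatase SHP-1 that CD22 and CD72 recruit, differed by −2.65 ± 0.38 (edgeR adjusted p = 0.133). PTPN6 was at 64.6 CPM with Y518R and 85.1 CPM with 3R in RAJI and at 128 CPM with Y518R and 113 CPM with 3R in P493-6, against 694 CPM with Y518R and 676 CPM with 3R in RS4-11 and 550 CPM with Y518R and 463 CPM with 3R in KOPN8. TNFSF13B, which encodes the ligand BAFF, was at 1.35 CPM or less in RAJI, P493-6 and KOPN8 and at 14.9 CPM with Y518R and 14.3 CPM with 3R in RS4-11 (difference −5.32 ± 1.71, edgeR adjusted p = 0.541).

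Against the 4 other lines, the B-lineage lines had higher fitted levels of all 9 genes, with a median log2 difference of 5.11, whereas 51.2% of all 17460 genes were above 0, with a median of 0.021. CD72, CD22 and CD37 passed edgeR's adjusted test, 3 of 9 genes, where 0.515% of all genes were called higher. CD22 differed by 9.25 ± 0.65 (SE, n = 4 lines each; edgeR adjusted p = 0.0127), CD72 by 6.91 ± 0.35 (edgeR adjusted p = 0.00972) and CD37 by 2.90 ± 0.37 (edgeR adjusted p = 0.0484). The genes were listed as B cell genes, so their direction here checks the label and is not independent evidence. CD72 was called under every alternative run, and it was the single call without MOLM13 or without THP1. CD37 lost its call without any 1 of the 8 lines and in the 3R libraries alone, and MS4A1 was called without RS4-11 (edgeR adjusted p = 0.0177) or without KOPN8 (0.0245).

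MS4A1 differed by 7.84 ± 1.26 (edgeR adjusted p = 0.0778), CD38 by 5.11 ± 0.79 (edgeR adjusted p = 0.0710), CD27 by 4.13 ± 0.89 (edgeR adjusted p = 0.134), TNFRSF13C by 4.66 ± 1.17 (edgeR adjusted p = 0.182), CXCR5 by 5.46 ± 2.02 (edgeR adjusted p = 0.337) and CD52 by 2.19 ± 0.91 (edgeR adjusted p = 0.393). DESeq2 called all of these but CD52, and over all genes it called 1216 of 15410 higher. The spread in this test comes from pairs of lines of 1 lineage, K562 and JURKAT stand alone, and each line has equal weight. CD22, CD72, CD38 and TNFRSF13C had mean levels in the 4 B-lineage lines that all exceeded those in the 4 other lines, a pattern that 2.31% of all genes showed in that direction. For TNFRSF13C the separation was narrow, at 6.96 CPM in RS4-11 against 5.88 CPM in MOLM13, whose libraries overlap. CD37 was called although THP1 had more of it than KOPN8 and RS4-11.

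Other genes of the same receptors followed the lineage in part. Of 25 genes of B cell receptor signalling, 10 were called higher in B-lineage lines, led by CD79A (7.91 ± 0.30), BLK (8.61 ± 0.59) and CD79B (8.68 ± 0.64), with edgeR adjusted p of 0.00878, 0.0127 and 0.0127. Of 20 B cell transcription factors, 5 were called higher, led by EBF1 (6.25 ± 0.31), PAX5 (7.97 ± 0.55) and IRF4 (8.75 ± 0.61), with edgeR adjusted p of 0.00972, 0.0127 and 0.0127. Of 32 other surface genes, 4 were called higher, and CD74, the invariant chain of class II antigen presentation, was among them at 6.74 ± 0.48 (edgeR adjusted p = 0.0127). Of 14 genes of CD27 and BAFF receptor ligands and signalling, CD70, the ligand of CD27, was the single call at 3.56 ± 0.36 (edgeR adjusted p = 0.0272). CD70 levels nonetheless overlapped. MOLM13, at 242 CPM with Y518R and 206 CPM with 3R, was above all 4 B-lineage lines. The highest of these was RAJI, at 127 CPM with Y518R and 170 CPM with 3R. THP1 was also above RS4-11 and KOPN8. K562 had 11 CD70 counts with Y518R and 2 with 3R, and JURKAT had 21 with Y518R and 36 with 3R.

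**Figure D2:**
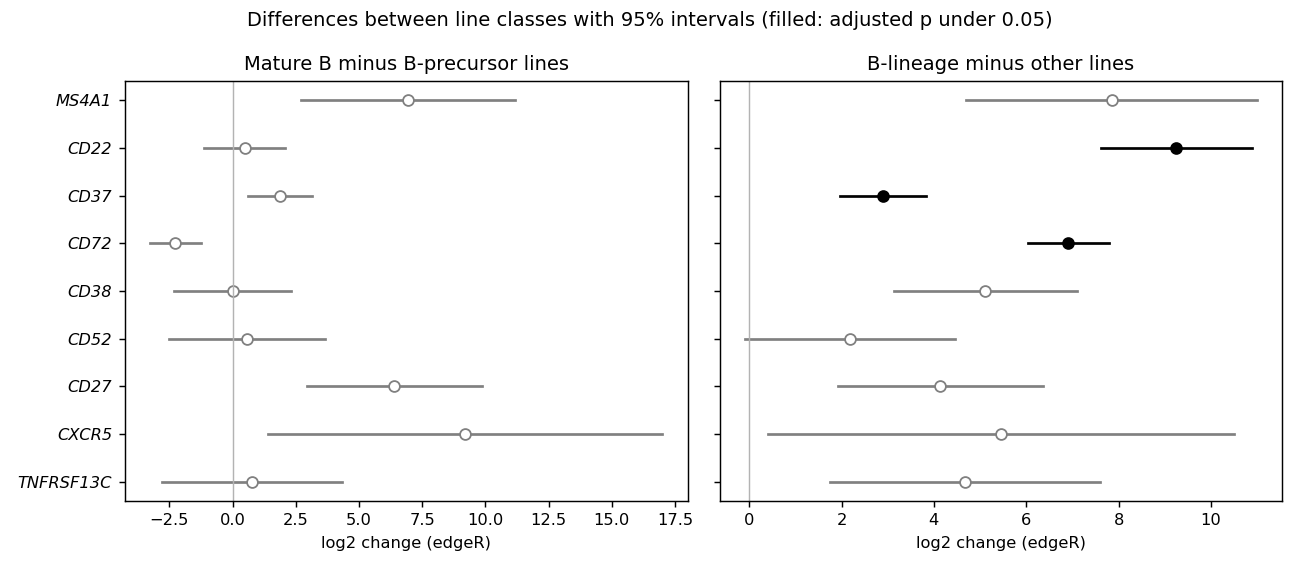
Log2 difference (horizontal axis) of each gene between mature B and B-precursor lines (left) and between B-lineage and other lines (right) from edgeR, with 95% intervals; filled points have an adjusted p under 0.05. No gene is filled on the left, where CD72 at −2.26 is the lowest, and CD22, CD72 and CD37 are filled on the right.

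Levels per kilobase of GENCODE v29 exon allow a rough comparison of the genes with one another within a line. The build used for counting is not known. The lengths include exon bases shared with other genes, 3925 of 4431 for CXCR5, 500 of 2675 for CD72 and 287 of 1338 for CD27. The effect of this on the values was not tested. In RAJI MS4A1 was first at 342 CPM per kilobase, followed by CD22 at 172 and CD37 at 122, and TNFRSF13C was last at 9.02. In P493-6 MS4A1 was again first, at 271 CPM per kilobase, and CXCR5 was last at 0.184. In RS4-11 CD72 was first at 113 CPM per kilobase and CD22 second at 45.2, while MS4A1 ranked 8 of 9 at 0.153. In KOPN8 CD52, at 131 CPM per kilobase, and CD22, at 127, were nearly level, and MS4A1 ranked 7 of 9 at 4.62. CD37 led in MOLM13 and THP1, at 30.9 and 68.7 CPM per kilobase, and CD52 led in K562 and JURKAT, at 27.0 and 8.52. The 9 genes together held 2145 CPM with Y518R and 2727 CPM with 3R in RAJI, and 1655 CPM with Y518R and 1663 CPM with 3R in P493-6. In KOPN8 they held 880 CPM with Y518R and 917 CPM with 3R, and in RS4-11 566 CPM with Y518R and 558 CPM with 3R. The highest such sum among the other lines was 191 CPM, in THP1 with 3R.

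**Figure D3:**
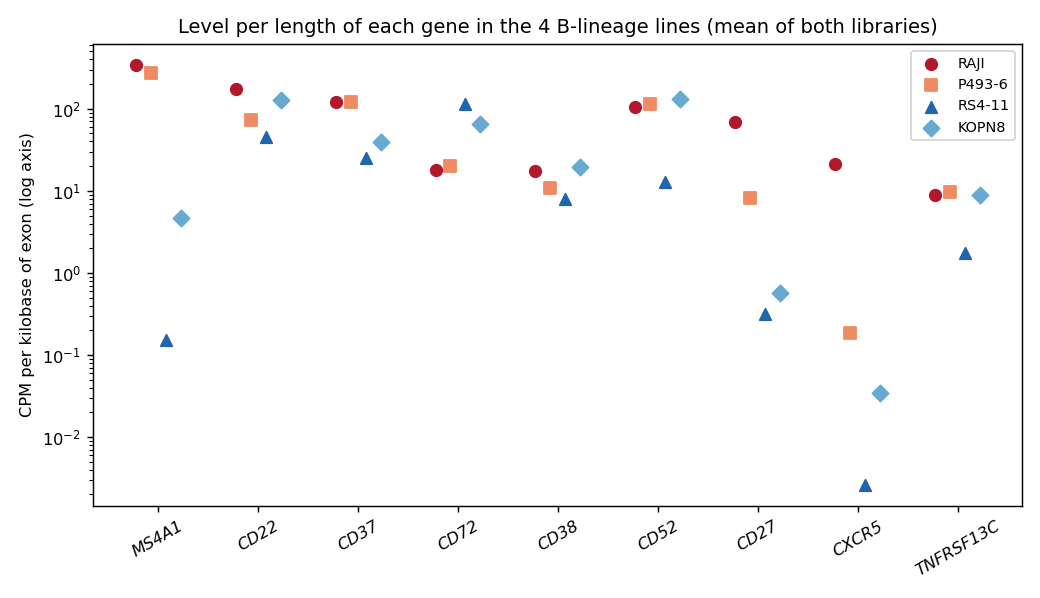
Mean CPM per kilobase of exon (log axis) of each gene in RAJI, P493-6, RS4-11 and KOPN8, 1 point per line (mean of both libraries). MS4A1 leads in RAJI and P493-6 at 342 and 271, CD72 leads in RS4-11 at 113, and CD52 and CD22 lead in KOPN8 at 131 and 127.

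Among the 9 genes themselves, levels over the 8 lines were most alike for CD27 and CXCR5 (Pearson r = 0.952 of log2 CPM), MS4A1 and CD27 (r = 0.886) and CD22 and CD72 (r = 0.869), and least alike for CD72 and CXCR5 (r = 0.324). These correlations are descriptions over 8 lines that share their lineage makeup. CXCR5 was high in RAJI alone, at 94.7 CPM against 0.815 CPM in P493-6, where CD27 was at 92.2 and 10.9 CPM. In KOPN8, RS4-11, THP1, MOLM13 and K562 it had 7 or fewer counts per library, so the prior count sets much of its log2 level there. The genes most like each member over the 8 lines were SP140 for MS4A1 (r = 0.975), SNX22 for CD22 (r = 0.984), PPP1R9B for CD37 (r = 0.963), BCAS4 for CD72 (r = 0.974) and PVRL1 for CD38 (r = 0.976). For the rest they were CAMSAP1L1 for CD52 (r = 0.969), OTUD4 for CD27 (r = 0.983), SLC25A46 for CXCR5 (r = 0.984) and FCRLA for TNFRSF13C (r = 0.985). FCRLA, an Fc receptor-like protein of B cells, was at 310 CPM in RAJI, 605 in P493-6, 305 in KOPN8 and 32.7 in RS4-11 as line means, with 23.5 in MOLM13 and less than 1 in the remaining lines. CD79A, a subunit of the B cell receptor, was among the 3 genes most like CD72 (r = 0.965) and was at 421 to 560 CPM in the B-lineage lines. OTUD4 and SLC25A46 had a narrow range, OTUD4 from 82.5 to 138 CPM and SLC25A46 from 63.0 to 159 CPM, each with RAJI highest. The other 2 genes by the same measure were OSBPL10 and RPL23AP7 for MS4A1, RERE and CLECL1 for CD22, M6PR and OGFRL1 for CD37, HSD17B7P2 and TESK1 for CD38, TCF4 and ZNF90 for CD52, GNA13 and KCNN3 for CD27, FAM105B and CD27 for CXCR5, and TMEM38A and PIK3IP1 for TNFRSF13C, with IL28RA second for CD72.

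The study's own comparison set Y518R against 3R. Over the 8 lines no gene of the 8 that could be tested changed beyond the spread between lines. CXCR5 did not reach the count filter, 8 of 9 genes were tested, and 0 passed edgeR's adjusted test, where 0.0% of 13043 genes passed (394 of all genes and 0 of the 8 passed an unadjusted p of 0.05, and DESeq2 called 1 gene, none of the 9). The fitted log2 changes of the 8 had a median of −0.011, with 3 above 0, and ran from −0.31 ± 0.20 for CD27 (SE, n = 8 lines) to 0.15 ± 0.16 for MS4A1, all with an edgeR adjusted p of 0.999. Over all genes the median was −0.0037 and 48.3% were above 0. In bulk RNA, fewer cells that make a gene and less of its RNA per cell cannot be told apart.

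The 95% intervals bound these changes. Those of CD22 (−0.22 to 0.20), CD37 (−0.14 to 0.22), CD72 (−0.21 to 0.19), CD38 (−0.32 to 0.091) and CD52 (−0.11 to 0.31) were narrow, whereas those of MS4A1 (−0.20 to 0.50), CD27 (−0.74 to 0.11) and TNFRSF13C (−0.44 to 0.23) were wider. Without RAJI the change of MS4A1 was 0.41 (unadjusted p = 0.0212, edgeR adjusted p = 0.999) and that of CD27 −0.61 (unadjusted p = 0.0682, edgeR adjusted p = 0.999). DESeq2 gave 0.36 for MS4A1 and −0.45 for CD27. The change of MS4A1 was −0.028 without KOPN8, 0.091 without RS4-11 and 0.24 without P493-6. That of TNFRSF13C ran from −0.18 without MOLM13 to 0.017 without RS4-11. CD27 was lower with Y518R in 7 of 8 lines and higher in RAJI, but 6 of the 7 lower lines had 68 or fewer counts in each library. CXCR5 CPM was lower with Y518R in all 6 lines with any count. The exact 95% interval for counting error left out a ratio of 1 only in RAJI and in THP1, which had 0 counts with Y518R and 7 with 3R. Without the filter its fitted change was −0.69 ± 0.26 (unadjusted p = 0.0106, edgeR adjusted p = 1), and DESeq2 gave −0.91 (unadjusted p = 0.0185, adjusted p = 1.0). Its counts outside RAJI were at most 28 per library, and whether BCL9L reads were among them was not tested.

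In the 4 B-lineage lines, where these genes are expressed most, 0 of 8 genes passed edgeR's adjusted test, where 0.0% of all genes passed (232 genes and 0 of the 8 at an unadjusted p of 0.05, and DESeq2 called 0 genes). The model held all 16 libraries, with 1 peptide term for these lines and 1 for the other lines. Its SE and p therefore also draw on the spread in the other lines. The fitted changes had a median of −0.056, with 2 of 8 above 0, against −0.0078 and 47.1% over all genes. TNFRSF13C had the lowest p, at −0.32 ± 0.16 (SE, n = 4 lines; unadjusted p = 0.0622, edgeR adjusted p = 1.0), and was lower with Y518R in RAJI, RS4-11 and KOPN8 and higher in P493-6. MS4A1 was at 0.13 ± 0.18, CD22 at −0.069 ± 0.10, CD37 at −0.047 ± 0.11, CD72 at 0.038 ± 0.11, CD38 at −0.057 ± 0.12, CD52 at −0.055 ± 0.12 and CD27 at −0.18 ± 0.23. Single lines moved some of these values. TNFRSF13C was at −0.20 without RS4-11, −0.21 without RAJI and −0.48 without P493-6. CD27 was at −0.47 without RAJI, −0.10 without RS4-11 and −0.091 without P493-6. MS4A1 was at 0.43 without RAJI, 0.059 without RS4-11, −0.088 without KOPN8 and 0.23 without P493-6, and at 0.39 by DESeq2. CXCR5, which passed the filter when the B-lineage libraries were fitted alone, was at −0.51 ± 0.20 (unadjusted p = 0.0214, edgeR adjusted p = 0.999). In that fit 2 of 9 genes, CXCR5 among them, and 457 of 12967 genes passed an unadjusted p of 0.05 in edgeR. Without RAJI 1 of 8 genes and 121 of 13110 genes did so, and without P493-6 1 of 8 and 287 of 12862. None of the 9 genes passed the adjusted test in these fits.

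The peptide effect in B-lineage lines was then set against that in the other lines in the same model. Of the 8 genes 0 passed edgeR's adjusted test, where 0.0% of all genes passed (284 genes and 1 of the 8 at an unadjusted p of 0.05, and DESeq2 called 0 genes). That 1 was TNFRSF13C, with a difference of −0.78 ± 0.30 (unadjusted p = 0.0215, edgeR adjusted p = 1.0). Its log2 ratio averaged −0.33 ± 0.40 in the B-lineage lines and 0.42 ± 0.42 in the other lines (SD, n = 4 each). THP1, K562 and JURKAT had 25 or fewer counts of it per library, and without RAJI the difference was −0.67 (unadjusted p = 0.0529). The median difference of the 8 genes was −0.20, against −0.0090 over all genes.

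Within single lines there is 1 library per peptide, so ratios are given with exact 95% intervals that cover counting error only. RAJI gave lower values with Y518R for 8 of the 9 genes, with a median log2 ratio of −0.27, whereas 46.8% of 11458 genes at 1 CPM or more were above 0, with a median of −0.023. No RAJI value reached a 2-fold change, which 5.27% of those genes did. MS4A1 in RAJI had a Y518R to 3R ratio of 0.735 (0.722 to 0.749), CXCR5 of 0.756 (0.707 to 0.808) and TNFRSF13C of 0.641 (0.574 to 0.716), and CD27 was the exception at 1.16 (1.09 to 1.25). The 3R library of this comparison is the one with 44.7% of reads outside genes, and the part of that in these ratios was not tested.

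P493-6, the other mature line, did not share the RAJI pattern, with 4 of 9 genes above 0 and a median log2 ratio of −0.023. Its MS4A1 ratio was 0.984 (0.968 to 1.0) and its TNFRSF13C ratio 1.09 (1.0 to 1.19), while CD72 was at 1.23 (1.14 to 1.32) and CD27 at 0.774 (0.658 to 0.910). No gene reached 2-fold, which 1.65% of genes did in P493-6.

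In KOPN8 MS4A1 had the highest ratio, 1.72 (1.49 to 1.98), from 637 counts with Y518R and 293 counts with 3R, and CD22 was at 0.878 (0.856 to 0.901). The ratio of MS4A1 in RS4-11 was 3.22 (1.55 to 7.19), from 27 counts with Y518R and 11 counts with 3R and below 1 CPM in both. TNFRSF13C in RS4-11 was at 0.613 (0.509 to 0.736), whereas CD72, its most abundant gene of the 9, was at 1.0 (0.974 to 1.03). Of the genes at 1 CPM or more, 4 of 7 in KOPN8 and 3 of 6 in RS4-11 were above 0, and none reached 2-fold, where 1.84% and 1.29% of all genes did.

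The other lines had 3 to 5 of the 9 genes at 1 CPM or more. In MOLM13 CD37 had a ratio of 1.40 (1.29 to 1.51), and CD72 one of 0.404 (0.175 to 0.858) from 10 counts with Y518R and 28 counts with 3R, the 1 gene of 5 past 2-fold where 3.94% of all genes were. In THP1 CD52 was at 1.53 (1.36 to 1.71), CD38 at 0.659 (0.573 to 0.756) and CD37 at 0.823 (0.789 to 0.859). None of the 3 reached 2-fold, where 6.53% of genes did. K562 had 3 of 3 genes above 0 and JURKAT 1 of 5, the interval left out a ratio of 1 for 1 of 3 genes in K562 and 0 of 5 in JURKAT, and none reached 2-fold, where 1.9% and 1.26% of genes did. CD37 thus went in opposite directions in MOLM13 and THP1, both of which carry MLL-AF9.

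**Figure D4:**
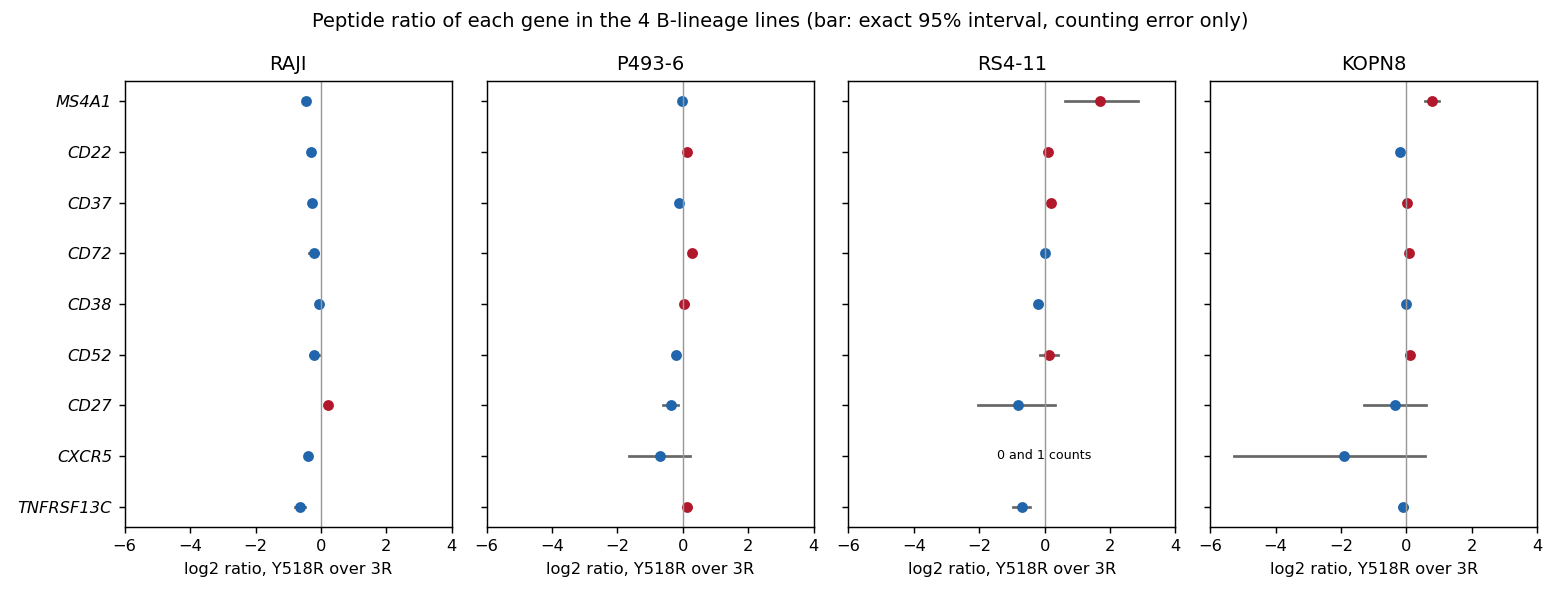
Log2 ratio of Y518R over 3R (horizontal axis) for each gene in RAJI, P493-6, RS4-11 and KOPN8, with exact 95% intervals for counting error; red points are above 0 and blue points below, and a gene with a count of 0 is given by its counts. RAJI has 8 of 9 genes below 0, P493-6 has 5, and MS4A1 is above 0 in RS4-11 and KOPN8.

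The fixed lists around these receptors gave no call between peptides either, with 0 genes past edgeR's adjusted test in each list over the 8 lines, in the B-lineage lines and in the difference between classes. In the B-lineage lines CD83, an activation marker, had the lowest p of the surface genes at −0.36 ± 0.10 (unadjusted p = 0.00207, edgeR adjusted p = 1.0), with 286 CPM with Y518R and 409 CPM with 3R in RAJI. FCRLA was at 0.28 ± 0.12 (unadjusted p = 0.0287, edgeR adjusted p = 1.0) and was higher with Y518R in all 4 B-lineage lines, which 5.44% of all genes were. For the receptor ligands and signalling genes 3 of 14 were above 0, with a median of −0.099, and for B cell receptor signalling 19 of 25 were, with a median of 0.021, against 47.1% and −0.0078 over all genes.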

How the data were processed

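Polyadenylated RNA was sequenced in 16 libraries, 1 for each of 8 lines and 2 peptides. The deposited values are counts, whole reads per gene symbol, not normalized. The submitters' processing notes name HTSeq 0.6.1, TopHat2 2.1.1, CASAVA 1.8.4, DESeq and DESeq2 3.0 and the builds GRCh38 and hg19, with no role for each. The sources used here do not give a strand setting. Library sizes and tests leave out the 5 entries per library that name no gene. Reads outside any gene were 17.7% to 26.9%, and 44.7% in 1 library, and reads given to several genes were 1.37% to 2.18%. These are shares of the gene counts plus these 2 kinds of reads, and the other entries that name no gene were left out.

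Groups and lines came from the labels. The line pairs the libraries: all 16 libraries matched the other library of their line best (Spearman correlation 0.987 to 0.995, and at most 0.900 with another line). The 2 libraries of a line differed by more than counting error (chi-square per degree of freedom 8.66 to 65.5). Nothing in the labels gives separate cultures within a line, so the p-values cover the spread over these lines at 1 library per peptide, which may be technical in part.

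Tests on the counts used edgeR 4.0.16 (quasi-likelihood, TMM, filterByExpr with a minimum count of 10) in R 4.3.3, with line as the block for the peptide comparisons and summed libraries per line for the line comparisons. The filter grouped libraries by peptide and line sums by lineage. K562 and JURKAT are lineages of 1 line, so in the line comparisons 1 line was enough for a gene to be tested. Benjamini-Hochberg adjustment ran over all genes tested, with calls at 0.05. An SE is the absolute log2 change over the square root of F. Log2 ratios within a line use a prior count of 2. Exact 95% intervals of count ratios cover counting error only. Alternatives were RLE size factors, no filter, DESeq2 1.42.0, each line left out, no block, B-lineage libraries alone, and the libraries of 1 peptide alone. The scripts were tested on simulated data. Exon lengths and overlaps come from GENCODE v29. Levels and ratios were computed with Python 3.11.15, pandas 2.3.3 and scipy 1.17.1.

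The 9 genes, and the lists around them, were chosen with earlier results of these data known. Named genes are the 9, genes from the lists, and the 3 genes most like each of the 9 over the 8 lines. From each list up to 3 called genes per direction could be named, or else the 1 per direction with the lowest p. Not every gene that this rule allows is named in each comparison. Values of some genes outside that rule (BCL9L) are given only for overlaps. CMAH, of the same lists, was not used here. One B-lineage marker is not reported here.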

Additional observations from a re-analysis of the deposited data

Results flagged for a closer look

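The log2 ratio of CD72 in MOLM13, −1.195, lay far from that of the other 7 lines, which ran from −0.23 to 0.30. It rests on 10 counts with Y518R and 28 counts with 3R. The log2 ratio of CD27 in K562, −2.219, likewise lay far from the others, which ran from −0.69 to 0.22, and it rests on 0 counts with Y518R and 6 counts with 3R. A total of 18 groups of ratios were looked at, over all 8 lines or over the 4 B-lineage lines for each of the 9 genes. For normally distributed values of equal spread, chance alone would set off this screen in about 1 in 20 groups. These ratios mix lines with many and with few counts, so the rate for them was not measured.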

How the results depend on the processing

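Among the peptide comparisons, none of the 9 genes was called under any alternative run. The values that changed sign were uncalled. Without the line as a replicate block, the 8-line changes were −0.25 for MS4A1, −0.11 for CD37, 0.029 for CD72 and 0.14 for CD27, and those in the B-lineage lines were −0.25 for MS4A1 and 0.15 for CD27. The cause was not tested. With DESeq2 CD22 was at 0.065 over the 8 lines and the MS4A1 difference between classes was 0.038. Leaving out 1 line at a time, the 8-line change ranged from −0.028 to 0.41 for MS4A1, from −0.045 to 0.072 for CD22, from −0.030 to 0.096 for CD37, from −0.091 to 0.040 for CD72 and from −0.18 to 0.017 for TNFRSF13C. In the B-lineage lines it ranged from −0.088 to 0.43 for MS4A1, from −0.14 to 0.012 for CD22, from −0.12 to 0.030 for CD37 and from −0.048 to 0.12 for CD72. The difference between classes ranged from −0.40 to 0.12 for MS4A1 and from −0.075 to 0.31 for CD38.

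Between mature and precursor lines DESeq2 called 5 of the 9 genes and edgeR 0 under each other alternative. Of all genes, DESeq2 called 1406 of 15410 in that comparison. CD38 changed sign with RLE size factors (0.013), without the filter (0.0066), with DESeq2 (0.013) and with Y518R libraries alone (0.034). Without 1 line it ranged from −0.50 to 0.78, CD22 from −0.28 to 1.42 and CD52 from −0.29 to 3.08. Between B-lineage and other lines, 3 genes were called, 5 without the filter, 8 by DESeq2 and 1 to 3 without 1 line (1 without MOLM13 or without THP1). Over all genes in that comparison, 144 of 20082 were called higher without the filter and 1216 of 15410 by DESeq2. Depth limits CXCR5, CD27 outside RAJI and P493-6, and every gene below 1 CPM.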
